A study of Mus musculus with 12 samples.

Results

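Oligodendrocyte precursor genes were followed on arrays of sorted cortical neurons, to find how much of their signal each preparation held and how it changed with age. Which cells gave that signal was not tested. The 10 genes, Pdgfra, Olig1, Olig2, Sox10, Cspg4, Gpr17, Bcas1, Ptprz1, Neu4 and Lhfpl3, were taken by symbol out of 19937 genes that had their own probe set, and each had exactly 1 probe set. Interneurons (IN) were GFP-positive cells of Nkx2-1Cre;RCE:LoxP cortices at P0 and P10, and pyramidal cells (Pyr) were GFP-positive cells of NexCre;RCE:LoxP somatosensory cortices at P0 and P12. All mice were of the C57BL6 strain, and each of the 4 groups had 3 arrays, replicates A, B and C, labelled as biological replicates. Cre of the Nkx2-1 line acts in progenitors and marks all their progeny, of whatever type, and Cre of the Nex line marks postmitotic excitatory neurons. Population therefore goes together with mouse line, dissected region and, at the later stage, 2 days of age. These cannot be told apart here.

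Oligodendrocyte precursors are the dividing glial cells from which myelinating oligodendrocytes arise. The bHLH factors Olig1 and Olig2 and the HMG factor Sox10 set and keep the lineage, the PDGF receptor alpha (Pdgfra) carries the mitogenic signal of PDGF-A, and the proteoglycan NG2 (Cspg4) and the phosphatase Ptprz1 lie on the precursor's surface. As precursors commit to differentiation they lose Pdgfra and NG2 and pass through a stage marked by the receptor Gpr17 and the protein Bcas1, before the myelin genes come on. The earliest wave of forebrain precursors is known to come from ventral progenitors that express Nkx2-1. Several of the genes are not private to the lineage: Pdgfra also marks fibroblasts, Cspg4 mural cells of vessels, and Ptprz1 radial glia and astrocytes.

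The labelled cell types carried their markers. Gad1, an enzyme of GABA synthesis, was at 12.69 ± 0.10 on the log2 scale (SD, n = 3) at the early and 13.24 ± 0.07 at the late interneuron stage, against 9.58 ± 0.18 in Pyr P0 and 8.49 ± 0.12 in Pyr P12. Slc17a7, the vesicular glutamate transporter of excitatory cells, read 13.36 ± 0.07 for Pyr P12 but 8.14 ± 0.07 for IN P10. Background was taken from 1204 probe sets of olfactory and vomeronasal receptors, as the 95th percentile of their values on an array, and was between 7.13 and 7.45. Differences between groups were tested with limma on all 12 arrays, and calls needed both a fold change over 2 and a p under 0.05 after Benjamini-Hochberg adjustment across 22961 probe sets. At the later stage interneurons were higher in 6 of 6 pan-interneuron genes and 6 of 8 genes of the medial ganglionic eminence, and lower in 7 of 11 pyramidal genes. The counts at P0 were the same. Interneuron arrays of the 2 ages differed in pyramidal genes: from IN P0 to IN P10, 4 of the 11 fell and 1 rose. Neurod6 went from 9.85 ± 0.35 to 6.29 ± 0.03. Values of different probe sets are not compared with each other.

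Promoter sequence was at hand for 6 of the 10 genes, Neu4, Lhfpl3, Pdgfra, Ptprz1, Cspg4 and Olig2, as the 250 bases before the start in RefSeq (GRCm38.p6). Below are 4 of them. Pdgfra and Cspg4 are shown because they fell together with age, and Olig2 and Lhfpl3 because they hold motifs that were searched. Capitals mark the E-boxes CAGCTG and CATCTG, sequences bound by bHLH factors such as the Olig proteins, and the Sox sequences ACAAAG and ACAATG, on either strand.

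Pdgfra, chr5:75152001-75152250, plus strand: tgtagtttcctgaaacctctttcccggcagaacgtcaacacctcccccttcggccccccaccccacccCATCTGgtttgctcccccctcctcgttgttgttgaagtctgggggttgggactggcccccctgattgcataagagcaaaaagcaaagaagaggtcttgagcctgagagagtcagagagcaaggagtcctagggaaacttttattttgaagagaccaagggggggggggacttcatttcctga
Cspg4, chr9:56864854-56865103, plus strand: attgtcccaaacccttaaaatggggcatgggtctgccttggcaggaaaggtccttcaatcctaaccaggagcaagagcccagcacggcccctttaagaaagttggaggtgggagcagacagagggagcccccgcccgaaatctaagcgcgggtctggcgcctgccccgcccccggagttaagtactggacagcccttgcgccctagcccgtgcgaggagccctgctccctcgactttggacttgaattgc
Olig2, chr16:91225300-91225549, plus strand: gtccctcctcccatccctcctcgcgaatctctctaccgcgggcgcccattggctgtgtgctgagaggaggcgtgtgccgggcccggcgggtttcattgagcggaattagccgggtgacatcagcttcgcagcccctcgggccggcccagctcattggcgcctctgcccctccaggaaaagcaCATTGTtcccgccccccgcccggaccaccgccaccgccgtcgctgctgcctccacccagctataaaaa
Lhfpl3, chr5:22745804-22746053, plus strand: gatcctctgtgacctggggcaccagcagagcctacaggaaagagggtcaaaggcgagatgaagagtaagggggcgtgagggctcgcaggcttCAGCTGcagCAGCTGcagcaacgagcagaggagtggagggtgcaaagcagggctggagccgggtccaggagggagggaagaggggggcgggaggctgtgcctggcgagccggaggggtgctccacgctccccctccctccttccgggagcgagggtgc

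Pdgfra held 1 CATCTG, Lhfpl3 2 copies of CAGCTG and Olig2 1 ACAATG, written as its complement. The general E-box CANNTG, which includes the first pair, was in 3 of the 6 promoters and in 66.2% of 32851 promoters of the same length. CAGCTG stood in 13% of all promoters, CATCTG in 14.4%, ACAAAG in 16.5% and ACAATG in 10.7%, so the matches are a description of these windows only. Cspg4, whose level followed that of Pdgfra most closely among the 10 genes, held none of the specific sequences. Olig1 and Olig2 lie beside each other on chromosome 16, with no protein-coding gene between them in the RefSeq table.

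At P0, 8 of the 10 genes were higher in interneurons than in pyramidal cells and 0 were lower, while 1.9% of all probe sets were called higher and 1.74% lower. Among these 8, the call of Bcas1 rests on pyramidal values below background. At the later stage all 10 had the higher level in IN P10, against 2.65% of all probe sets called higher and 2.91% called lower. The median log2 difference of the 10 genes was 2.10 at P0 and 2.27 at the later stage. In bulk RNA, fewer cells of a type and less RNA per cell cannot be told apart. In the interneuron arrays all 10 genes were above background on every array. The genes are taken below by role, from receptors and surface proteins to transcription factors and the genes of the committed stage.

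**Figure D1:**
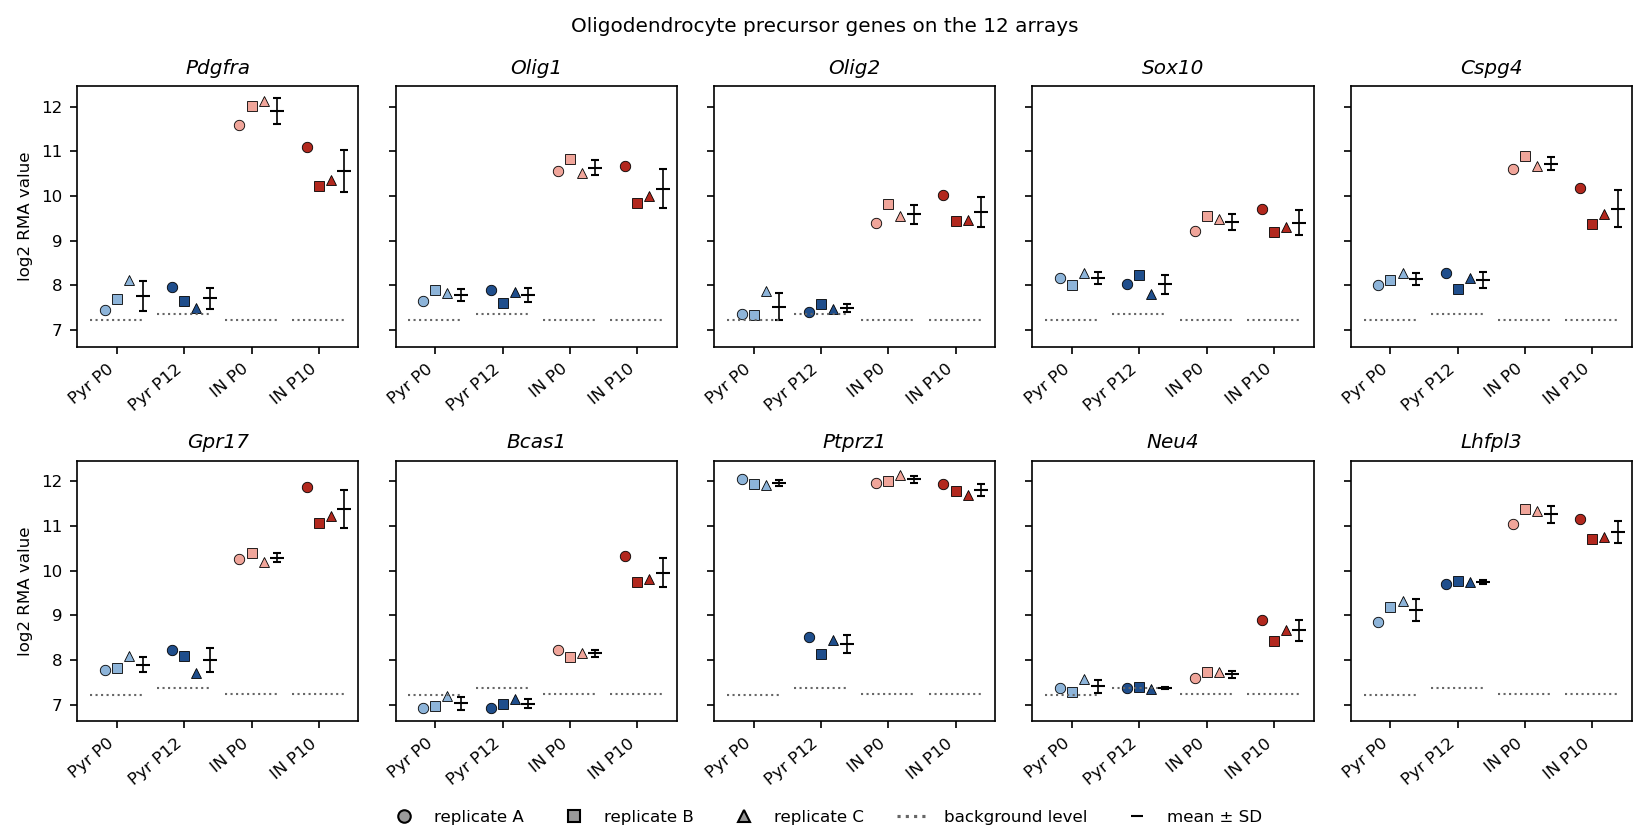
Log2 RMA values of the 10 oligodendrocyte precursor genes on the 12 arrays, grouped as Pyr P0, Pyr P12, IN P0 and IN P10. Symbols mark replicates A, B and C, black bars the mean ± SD of 3 arrays and dotted lines the mean background level of the group. With age in interneurons Pdgfra and Cspg4 go down, Gpr17 and Bcas1 go up, and Ptprz1 is the one gene that is as high in Pyr P0 as in the interneuron arrays.

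Pdgfra read 11.58, 12.03 and 12.12 in IN P0, 11.10, 10.23 and 10.36 in IN P10, 7.46, 7.69 and 8.12 in Pyr P0, and 7.97, 7.66 and 7.50 in Pyr P12 (log2 values of replicates A, B and C). The lowest interneuron array was above the highest pyramidal array by a wide margin at both stages. The difference between populations was 4.15 ± 0.23 (SE) at P0, a 17.8-fold higher level in interneurons (limma, adjusted p = 8.8e-09), and 2.86 ± 0.23 at the later stage, or 7.25-fold (adjusted p = 2.18e-07). Between P0 and P10 Pdgfra fell 2.54-fold in interneurons, by 1.34 ± 0.23 on the log2 scale (adjusted p = 0.000193), and no IN P10 array reached an IN P0 array. In pyramidal cells the values of both ages overlapped, and their difference was -0.05 with a 95% interval from -0.54 to 0.44.

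Cspg4 followed the same course. It read 10.61, 10.89 and 10.67 in IN P0, then 10.18, 9.38 and 9.60 in IN P10, and the pyramidal arrays lay between 7.93 and 8.28. Interneurons were 5.99-fold higher at P0 (adjusted p = 4.07e-08) and 3.01-fold higher at the later stage (adjusted p = 3.12e-06, limma). The fall with age in interneurons, 1.00 ± 0.16 on the log2 scale or 2.01-fold, sat at the fold threshold. Its adjusted p was 0.000153, and the call was lost without IN P0 replicate B (-0.92), IN P10 replicate B (-0.83) or IN P10 replicate C (-0.94), and with a second quantile normalization (-0.99).

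Ptprz1, a receptor phosphatase for pleiotrophin and midkine, had another pattern. Its values were 11.97, 12.02 and 12.14 in IN P0 and 12.05, 11.94 and 11.91 in Pyr P0, which overlapped. The difference at P0 was 0.08, with a 95% interval from -0.13 to 0.28 (limma, adjusted p = 0.715). It then read 11.94, 11.78 and 11.69 in IN P10 but 8.53, 8.13 and 8.44 in Pyr P12. In pyramidal cells it fell by 3.60 ± 0.10 on the log2 scale, or 12.1-fold (adjusted p = 4.07e-12). In interneurons its change of -0.24 did not pass (adjusted p = 0.0577). Ptprz1 was the 1 gene of the 10 called between the pyramidal ages, where 3.48% of all probe sets were called lower and 5.68% higher. Of 8 genes of immature neurons, 6 fell in pyramidal cells and 4 in interneurons over the same intervals.

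Lhfpl3, a tetraspan membrane protein of the LHFPL family, was well above background in both populations. It read 11.05, 11.39 and 11.34 in IN P0 and 11.15, 10.71 and 10.75 in IN P10, and these values overlapped. In pyramidal cells it read 8.86, 9.18 and 9.33 at P0 and 9.69, 9.78 and 9.75 at P12, which did not overlap. That difference of 0.62 ± 0.13 passed the adjusted p (0.00131) but was a 1.53-fold change, under the threshold. Interneurons were 4.40-fold higher at P0 (adjusted p = 3.16e-08) and 2.19-fold higher at the later stage (adjusted p = 1.07e-05). The last call was lost without IN P10 replicate A, when the log2 difference was 0.99.

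The 3 transcription factors that define the lineage were called higher in interneurons at both stages and were not called between the interneuron ages. Olig1 read 10.56, 10.82 and 10.51 in IN P0 and 10.66, 9.83 and 10.01 in IN P10, against 7.60 to 7.90 in all 6 pyramidal arrays. It was 7.20-fold higher at P0 (limma, adjusted p = 2.15e-08) and 5.24-fold higher later (adjusted p = 7.41e-08). Olig2 read 9.40, 9.82 and 9.56 in IN P0 and 10.03, 9.43 and 9.46 in IN P10, with pyramidal arrays from 7.33 to 7.88. Its excess was 4.19-fold at P0 and 4.44-fold later, with adjusted p of 5.3e-07 and 2.12e-07.

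Sox10 read 9.22, 9.55 and 9.48 in IN P0 and 9.72, 9.19 and 9.30 in IN P10, and the pyramidal arrays lay between 7.82 and 8.28. It was 2.39-fold higher at P0 (limma, adjusted p = 1.05e-05) and 2.59-fold higher later (adjusted p = 2.58e-06). The difference of IN P10 from IN P0 was 0.05 for Olig2, with a 95% interval from -0.32 to 0.42, and -0.01 for Sox10, with an interval from -0.31 to 0.29. Olig1 differed by -0.46 (-0.83 to -0.10), which passed the adjusted p at 0.0392 but not the fold threshold. For all 3 factors the arrays of the interneuron ages overlapped.

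The genes of the committed stage moved the other way from Pdgfra. Gpr17, a G protein-coupled receptor of cells about to differentiate, read 10.26, 10.41 and 10.20 in IN P0 and 11.87, 11.06 and 11.23 in IN P10, with pyramidal arrays from 7.71 to 8.23. It rose 2.14-fold with age in interneurons (limma, 1.10 ± 0.18 log2, adjusted p = 0.000164), and every IN P10 array was above every IN P0 array. Without IN P10 replicate A this difference was 0.85 and the call was lost. Its excess over pyramidal cells was 5.25-fold at P0 (adjusted p = 2.4e-07) and 10.4-fold later (adjusted p = 4.1e-09).

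Bcas1, a protein of newly forming oligodendrocytes, read 8.23, 8.07 and 8.16 in IN P0 and 10.33, 9.74 and 9.81 in IN P10. It rose 3.50-fold, by 1.81 ± 0.13 on the log2 scale (limma, adjusted p = 5.41e-08), the largest change with age in interneurons among the 10 genes. In all 6 pyramidal arrays it was not above background, with values from 6.92 to 7.19. Interneurons were therefore at least 1.90-fold higher at P0 and at least 6.03-fold higher later, counted against the background level of the pyramidal arrays. The measured log2 differences were 1.12 at P0 (limma, adjusted p = 1.37e-05) and 2.94 later (adjusted p = 5.29e-10). The bound at P0 is under the fold threshold, so the call of Bcas1 at P0 rests on pyramidal values below background.

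Neu4, a sialidase, was near background in 3 of the groups. It read 7.60, 7.74 and 7.73 in IN P0, from 7.29 to 7.57 in pyramidal cells, and 8.90, 8.43 and 8.68 in IN P10. At P0 the interneuron arrays lay above the pyramidal ones by 0.27, which did not pass (adjusted p = 0.0734). At the later stage the excess was 2.46-fold (limma, adjusted p = 1.95e-07). From IN P0 to IN P10 its difference was 0.98 ± 0.10 with an adjusted p of 2.14e-06, a 1.97-fold change just under the threshold. The call was made without IN P0 replicate B (1.01) or IN P10 replicate B (1.10).

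**Figure D2:**
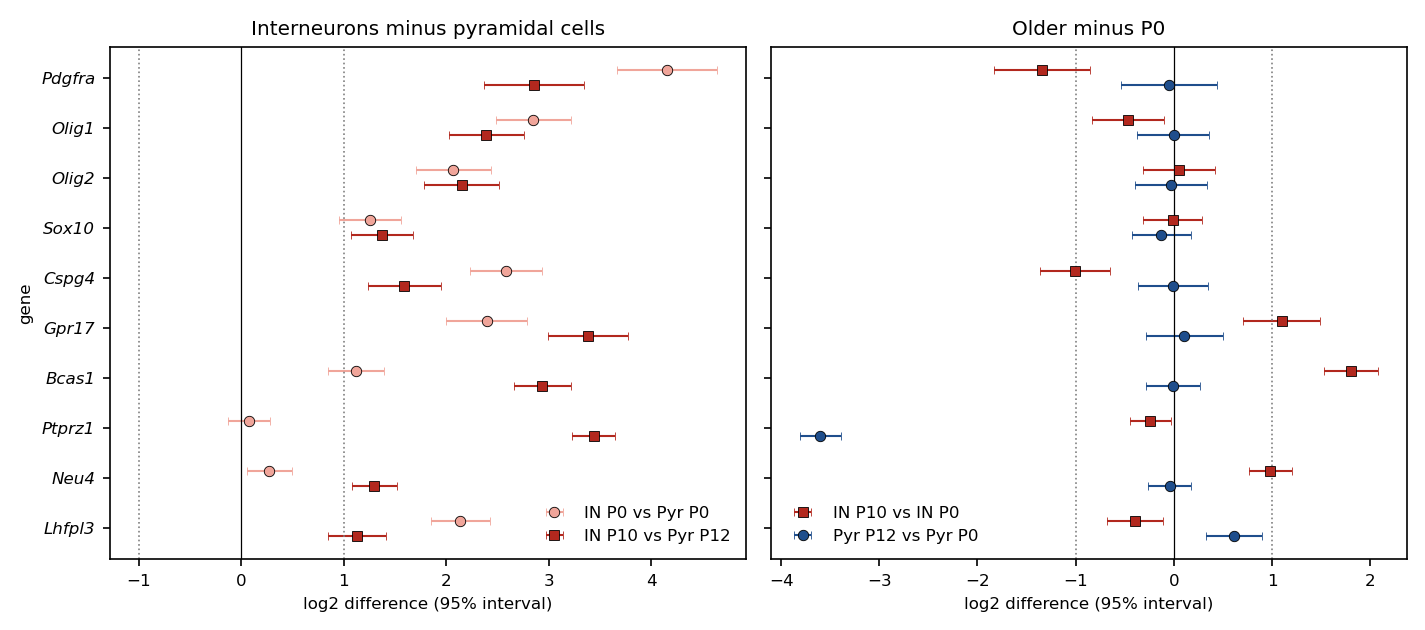
Log2 differences of the 10 genes with 95% intervals from limma. On the left are interneurons minus pyramidal cells at P0 and at P10 against P12, and on the right the older minus the P0 arrays of each population. Dotted lines mark a 2-fold change. On the right, Pdgfra and Cspg4 lie left of 0 and Gpr17, Bcas1 and Neu4 right of 0 in interneurons, while in pyramidal cells Ptprz1 lies at -3.60 and the others between -0.13 and 0.62.

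Between the interneuron ages, 4 of the 10 genes were thus called, 2 lower (Pdgfra and Cspg4) and 2 higher (Gpr17 and Bcas1), while 2.85% of all probe sets were called lower and 4.19% higher. With no fold threshold 7 passed the adjusted p. The share of all probe sets that pass at any fold was not counted, so the 7 cannot be set against it. Ratios of genes on the same array, in which an equal shift of both genes cancels, describe the size of these opposite changes. The log2 ratio of Bcas1 to Pdgfra was higher at P10 by 3.15, with a smallest gap between single arrays of 2.58. For Gpr17 to Pdgfra the difference was 2.44, and for Neu4 to Cspg4 1.98. Cspg4 to Pdgfra differed by 0.34. Olig1 to Olig2 differed by -0.51. The pairs were chosen after the values had been seen, so the direction of these differences was fixed by the choice and they are a description only.

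The test of age by population, the change in interneurons minus the change in pyramidal cells, called 5 genes. Ptprz1 (3.36 ± 0.14, adjusted p = 1.39e-09), Bcas1 (1.82 ± 0.18, adjusted p = 4.61e-06) and Neu4 (1.02 ± 0.14, adjusted p = 0.000102) had the more positive change in interneurons, as had 2.24% of all probe sets. Pdgfra (-1.29 ± 0.32, adjusted p = 0.00697) and Lhfpl3 (-1.01 ± 0.19, adjusted p = 0.000981) had the more negative change, as had 2.63%. For Ptprz1 the difference came with its fall in pyramidal cells, and for Bcas1 and Pdgfra with changes in interneurons. Cspg4 at -0.99 and Gpr17 at 0.99 passed the adjusted p (0.005 and 0.0091) but not the fold threshold. The calls of Neu4 and Lhfpl3 were lost when single arrays were left out.

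In pyramidal arrays most of these genes were near background. At P0, 9 of the 10 were above background on all 3 arrays, and at P12 8 were. When the 99th percentile of the receptor probe sets was taken as the level, 2 and 1 remained above it. In interneurons 8 of the 10 were above that level on all 3 arrays at P0, and 10 at P10. In IN P0 Neu4 was above it on 0 arrays and Bcas1 on 2. After subtraction of background on the linear scale, the signal in Pyr P0 was 1.87% of that in IN P0 for Pdgfra, 4.9% for Olig1 and 5.88% for Olig2. For Lhfpl3 it was 17.8%, for Sox10 25.4%, for Neu4 37.4% and for Ptprz1 94.7%. The median over the 10 genes was 8.36%, and the median over 6 pan-interneuron genes was 8.85%.

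At the later stage the share of the IN P10 signal seen in Pyr P12 was 3.21% for Pdgfra, 5.34% for Olig1, 2.25% for Olig2 and 39.7% for Lhfpl3. The median over the 10 genes was 4.24%, and that over the pan-interneuron genes was 1.39%. Between Pyr P0 and Pyr P12, 5 of the 6 pan-interneuron genes fell, with a median difference of -1.56 over the list. The 9 precursor genes other than Ptprz1 had a median difference of -0.01, and 0 of them were called. Apart from Lhfpl3 (9.12), their means in Pyr P0 were only 7.03 to 8.16, with background between 7.13 and 7.38. They thus had little room to fall, whereas the pan-interneuron genes had means of 8.15 to 9.89 in Pyr P0. Whether these medians differ was not tested.

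Lists for later stages of the lineage and for its regulators gave mixed counts. Among 9 genes of newly formed oligodendrocytes, the older interneurons exceeded Pyr P12 in 4 and were lower in 0, with a median difference of 0.82. They were Enpp6 (2.85), Bmp4 (2.77), Itpr2 (2.05) and Tcf7l2 (1.17). From IN P0 to IN P10, Enpp6, a phosphodiesterase of cells that are becoming oligodendrocytes, rose by 2.95 ± 0.11 on the log2 scale (limma, adjusted p = 1.14e-10), and Bmp4 by 2.79 ± 0.07 (adjusted p = 8.37e-12). In pyramidal cells 0 of the 9 were called between the ages.

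Of 15 myelin genes, IN P10 exceeded Pyr P12 in 7, led by Gjc3 (3.06), the enzyme Cnp (2.89) and Tspan2 (2.37). At P0 the number was 3, and 6 rose between IN P0 and IN P10. Of the genes for proteins of the mature sheath, Mag (1.68) and Cldn11 (1.16) were called higher at the later stage, and they rose by 1.84 and 1.33 between the interneuron ages. Mbp (0.54, adjusted p = 2.67e-05) and Mog (0.79, adjusted p = 7.2e-05) passed limma's adjusted p but not the fold threshold. Their differences between the interneuron ages were 0.90 and 0.96 (adjusted p = 1.44e-07 and 8.24e-06), again under that threshold. Of 11 further precursor genes 3 were higher at the later stage, C1ql1 (2.66), Vcan (1.39) and Cacng4 (1.19), and 8 were not called. Of those, Tnr (0.93) and Rlbp1 (0.57) passed the adjusted p as higher and Emid1 (-0.59) as lower, with folds under 2. Megf11 and Cspg5, for example, differed by -0.05 and -0.02. At P0 2 of the 11 were called higher and 0 lower, and Vcan (-0.21) and Cacng4 (0.30) were not called. Their changes with age were -3.03 and -1.84 in pyramidal cells, and -1.43 and -0.95 in interneurons.

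Among 14 further transcription factors of the lineage, IN P10 was above Pyr P12 in 7 and below it in 1. Sox6 (3.43), Zfp536 (3.41) and Id4 (2.44) led them, of which Sox6 is also a factor of interneurons from the medial ganglionic eminence. At P0 the 4 that were higher were Sox6, Zfp536, Zfp488 (1.14) and Nkx2-2 (1.04), and Sox5 was lower (-2.43), the last 3 named after their values were seen. Of 5 genes of the PDGF family, 0 were called between IN P10 and Pyr P12. The ligand Pdgfa differed by 0.06 and the other receptor Pdgfrb by 0.00. Of 6 ligands and partners of Ptprz1, 2 were lower in IN P10, pleiotrophin (Ptn, -1.71) and tenascin C (Tnc, -1.23).

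The cell types that share Pdgfra, Cspg4 or Ptprz1 were examined in the same way. Of 13 genes of mural cells and fibroblasts 0 were called between populations at either stage, and at the later stage Vtn (0.24) and Acta2 (0.27) passed limma's adjusted p in the direction of interneurons, and 2 others passed it in that of pyramidal cells. At P0 the counts were 0 and 1. Their mean log2 value on single arrays ran from 7.32 to 7.37 in IN P0, from 7.35 to 7.41 in IN P10, from 7.29 to 7.49 in Pyr P0 and from 7.33 to 7.42 in Pyr P12, close to background. In each group 4 or 5 of the 13 were not above background. Among 13 astrocyte genes 0 were higher in interneurons and 1 was lower at each stage, and 4 at each stage passed the adjusted p in the higher direction with a fold under 2. Those were Aldoc (0.58 at P0 and 0.94 later), S100b (0.35 and 0.62) and Slc1a3 (0.42 and 0.36) at both stages, Slc1a2 (0.25) at P0 and Slc4a4 (0.40) later. In the lower direction 2 passed the adjusted p at P0, Slc4a4 (-1.12) and Fgfr3 (-0.56). Later 3 did, Slc1a2 (-3.41), Aldh1l1 (-0.96) and Acsbg1 (-0.26). Of 7 radial glia genes 2 were called higher in interneurons at both stages, Sox2 (3.24 at P0 and 3.77 later) and Fabp7 (2.47 and 1.13). Sox2 and Fabp7 are also known from oligodendrocyte precursors. At P0 Vim (0.73) and Hes5 (0.26) also passed the adjusted p as higher, and Pax6 (-0.41) passed it as lower. Of 13 microglial, 11 endothelial and 11 cycling-cell genes, 0 were called at either stage, though 7 of the cycling-cell genes were higher in IN P0 with an adjusted p under 0.05 and a fold under 2. Mki67 (0.91) and Ccna2 (0.73) led them, and the median difference of the list was 0.36. At the later stage 3 genes of that list, Mki67, Aurkb and Kif11, passed the adjusted p as higher, by 0.22 to 0.34. In the lower direction 2 passed it, and the median difference of the list was 0.03. The part of the astrocyte, radial glia and cycling-cell genes in the levels of the 10 genes was not tested.

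**Figure D3:**
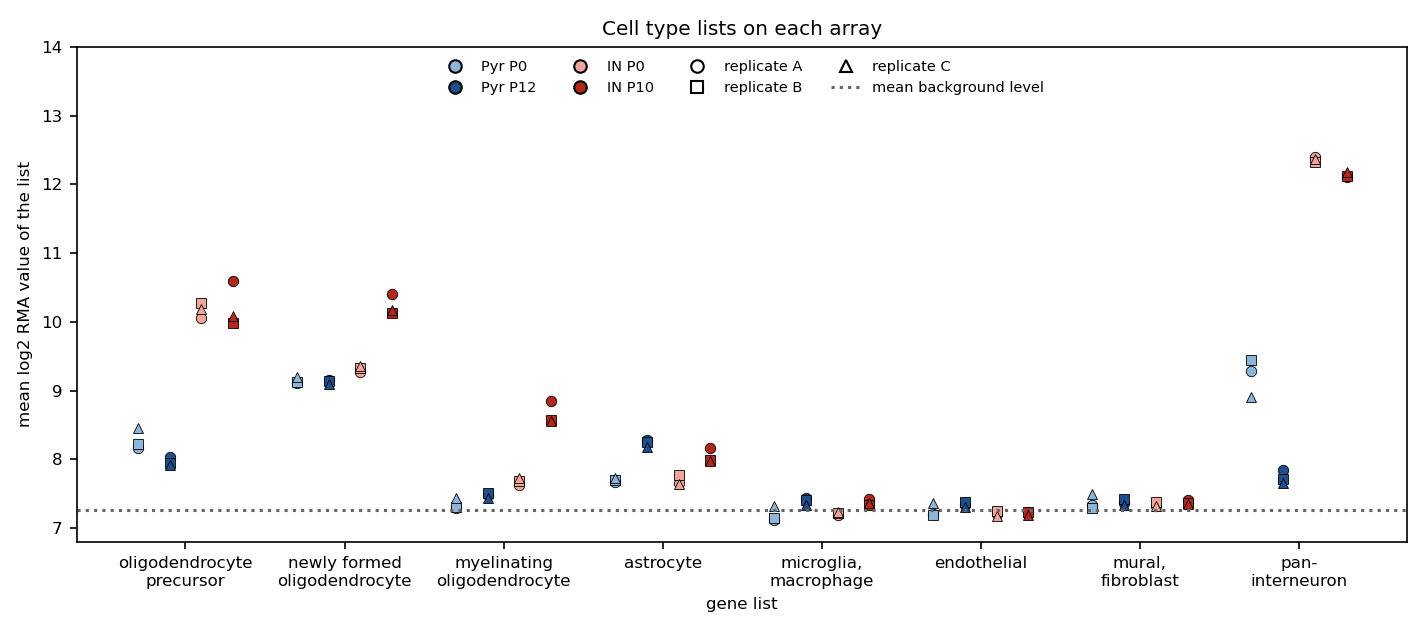
Levels of 8 gene lists on each of the 12 arrays, as the mean log2 RMA value of a list, coloured by group and marked by replicate, with the mean background level dotted. Levels may be compared between arrays within a list, not between lists. The precursor list lies near 10 in interneurons and near 8 in pyramidal cells, the myelinating list is highest in IN P10, and the microglial, endothelial and mural lists stay between 7.12 and 7.49 on all arrays.

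Single arrays of a group differed in these genes. On IN P10 replicate A all 10 genes were higher than on replicates B and C, while 37.3% of all 19937 genes were highest on that array. Replicate B was the lowest of the group for 9 of the 10. The gap of replicate A from the mean of B and C had a median of 0.57 over the 10 genes and of 0.00 over all genes, of which the central 95% lay between -0.20 and 0.27. The gap of Pdgfra, 0.81, was the largest of the 19937 genes. Among the 10, Olig1 followed at 0.74, after 5 genes outside them, Calcrl (0.79), Itgb8 (0.78), Xist (0.75), Fabp7 (0.75) and Ugt8a (0.75). The other gaps were 0.73 for Gpr17, 0.69 for Cspg4, 0.58 for Olig2, 0.55 for Bcas1, 0.47 for Sox10, 0.43 for Lhfpl3, 0.34 for Neu4 and 0.21 for Ptprz1. Of the 50 genes with the largest gaps, 6 were among the 10 and 5 were in the other lists of the lineage.

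Other lists had smaller median gaps on that array, but being highest on it was not particular to the 10 genes. It held for 11 of 11 further precursor, 14 of 15 myelin, 8 of 9 newly formed oligodendrocyte and 12 of 13 astrocyte genes. For pan-interneuron genes it held for 2 of 6, and for pyramidal genes for 3 of 11. The median gap of IN P10 replicate A was 0.30 for the myelin genes, 0.21 for those of newly formed oligodendrocytes, 0.20 for the further precursor genes and 0.18 for the lineage transcription factors. It was 0.16 for radial glia, 0.15 for astrocyte, 0.13 for Ptprz1 partner and 0.12 for cycling-cell genes. It was 0.06 for immature neuron, 0.05 for PDGF family, 0.05 for microglial, 0.04 for endothelial, 0.04 for mural and fibroblast, -0.02 for pyramidal, -0.02 for medial ganglionic eminence and -0.03 for pan-interneuron genes. Xist, the RNA of the inactive X chromosome, read 12.39 on replicate A and 11.48 and 11.80 on B and C, so the arrays also differed in a gene outside the lineage. Its part in the result was not tested.

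**Figure D4:**
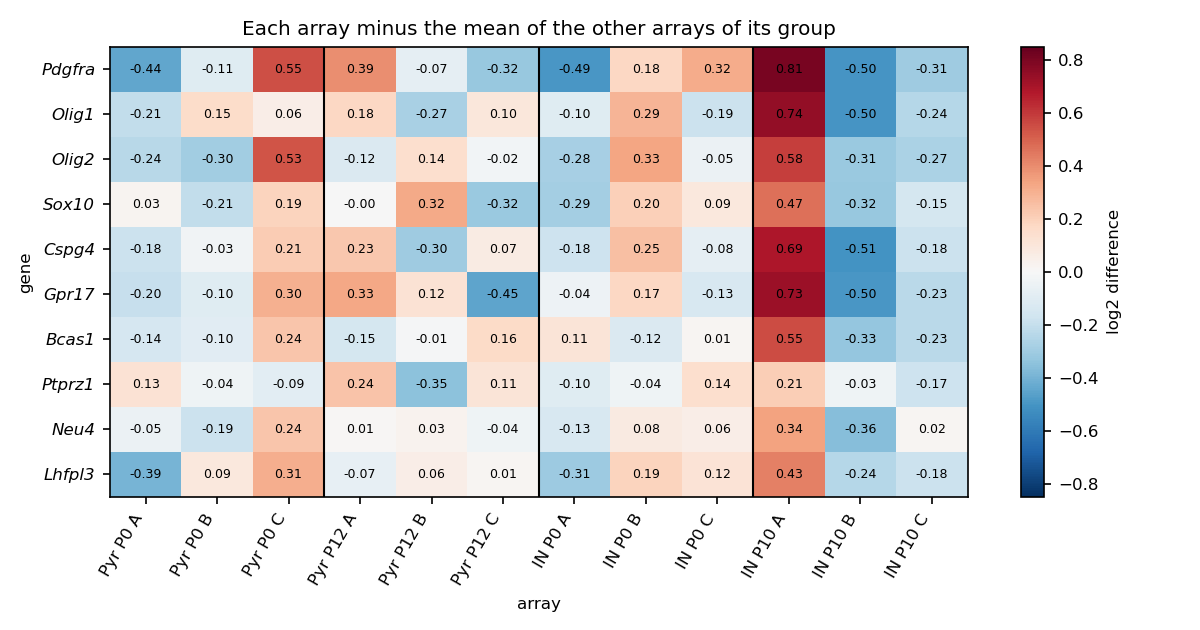
Log2 value of each of the 10 genes on each array minus the mean of the other arrays of its group, with the value written in each cell. Red is above and blue below the rest of the group. The column of IN P10 replicate A is red in all 10 rows, from 0.21 for Ptprz1 to 0.81 for Pdgfra, and no other column is of 1 sign throughout except IN P10 replicate B, which is below in all 10.

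The genes moved together within IN P10. The SD of the 9 genes other than Ptprz1 was between 0.23 and 0.47 in that group. Relative to the mean of the other members on the same array, with Ptprz1 left out of that mean, it was between 0.05 and 0.18. For Pdgfra it went from 0.47 to 0.14, for Gpr17 from 0.43 to 0.09 and for Bcas1 from 0.32 to 0.05. Ptprz1 went the other way, from 0.13 to 0.25. Without IN P10 replicate A, 9 of the 10 genes were still called higher than in Pyr P12, and 3 rather than 4 were called between the interneuron ages.

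In IN P0, replicate A was lowest for 7 of the 10 genes and replicate B highest for 7, with median gaps of -0.15 and 0.18. Replicate B also had the higher level of pyramidal genes, with a median gap of 0.41 over that list. Neurod6, the gene behind the NexCre line, read 9.75, 10.25 and 9.57. The part of either in the result was not tested, and the 8 calls at P0 stood without any 1 array. In Pyr P0, replicate C was highest for 8 of the 10, beside 49.4% of all genes. Xist there read 12.54, 12.56 and 7.27, which sets replicate C apart in another gene.

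All 10 genes were higher on every IN P10 array than on every Pyr P12 array, and 9 of 10 were so at P0, the exception being Ptprz1. The share of all probe sets with this order was 19.8% and 16.2%.

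Genes with a pattern like that of Pdgfra were sought by Pearson's r over the 12 arrays, as a description, since the 12 arrays fall into 4 groups. The 8 nearest outside the 10 were Scrg1 (0.994), Tril (0.991), Ednrb (0.990), Gldc (0.990), Ets1 (0.989), Shc4 (0.987), Map3k1 (0.984) and Unc13c (0.983). Of the 10 genes, Cspg4 (0.993) and Olig1 (0.984) were as near, Lhfpl3 (0.957), Olig2 (0.955) and Sox10 (0.953) came next, and Bcas1 (0.676), Ptprz1 (0.565) and Neu4 (0.558) were far. For Bcas1 the nearest were Alk (0.993), Tac1 (0.989), Akr1c18 (0.988), Gpr37l1 (0.987), Arhgef6 (0.986), Plpp4 (0.986), Asic4 (0.986) and Gjc3 (0.985). Gjc3 was on the myelin list, and the others were on none of the lists. Neu4 (0.975) and Gpr17 (0.949) were the nearest of the 10 to Bcas1. Genes of both orders shared the same arrays, so an r near 1 here says that the group means were spaced alike. Means that lay close could still stand in another order. Ednrb read 7.22 in Pyr P0 and 7.41 in Pyr P12, and Pdgfra 7.76 and 7.71.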

How the data were processed

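Log2 values deposited by the authors were used. The authors sorted GFP-positive cells, hybridized their RNA to Mouse Gene 1.0 ST arrays and processed the scans with RMA, which corrects background, equalizes the arrays by quantiles and summarizes probe sets. The software version and the genome build are not given in the sources used here. The number of arrays, 3 per group, limits the precision.

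Of 28192 probe sets, 21640 had 1 symbol in the platform annotation, 1321 had several and 5231 had none, which were left out. Where a gene had several probe sets, the brightest on average was kept. The 4 groups were fitted in limma 3.58.1 (R 4.3.3) with 8 residual degrees of freedom and no block. The methods name SAM (false discovery rate under 0.05, fold over 2), which was run as an alternative. A group with no array above background was given a bound, the fold of the other group's mean over the dim group's background level. The replicate letters were not used to pair samples, since the labels do not say that a letter marks a shared litter, day or batch. Of 18 correlations between deviations of same-letter arrays, from -0.19 to 0.22, 5 were over 0.1. These values alone cannot show whether a letter does so. The genes, the 16 other lists and the tests were chosen with earlier results of these data known. Named are the 10 genes, at most the 3 most changed of each other list in IN P10 against Pyr P12 and the 8 genes nearest in pattern to Pdgfra and to Bcas1. The remaining named genes, among them Tcf7l2, Mag, Cldn11, Mbp, Mog, Megf11, Cspg5, Pdgfa, Pdgfrb, Calcrl, Itgb8 and Xist, were named after their values had been seen. Alternatives were other fits, filters, scalings and thresholds, and leaving out each array. Scripts were tested on simulated data. List genes without a probe set of their own were not analysed here. Promoters were matched by Entrez gene identifier in RefSeq's table, 6 of 10, and other sequences were not used here. Figures used matplotlib 3.10.9.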

Additional observations from a re-analysis of the deposited data

Results flagged for a closer look

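The change with age differed between interneurons and pyramidal cells, by limma's age by population test, in 5 of the 10 genes. The difference, interneuron change minus pyramidal change on the log2 scale, was 3.36 for Ptprz1, 1.82 for Bcas1, 1.02 for Neu4, -1.29 for Pdgfra and -1.01 for Lhfpl3. The older stage was P10 in interneurons and P12 in pyramidal cells.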

How the results depend on the processing

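The number of genes called was 8 at P0 and 10 at the later stage between populations, and with the replicate letter as a block the counts stayed at 8, 10, 4, 1 and 5 for the populations at P0, at the later stage, the interneuron ages, the pyramidal ages and age by population. SAM, limma-trend, a fit of only the compared groups, tests over all probe sets or only those above background, median centring, a second quantile normalization and an adjusted p under 0.01 kept every count within 1.5 times. With no fold threshold the interneuron ages gave 7 in place of 4, and the pyramidal ages gave 2 in place of 1, as they did at a fold over 1.5. Shares of all probe sets were not counted at these thresholds. Leaving out each array in turn gave 8 to 8, 9 to 10, 3 to 4, 1 to 1 and 5 to 6. Differences near 0 that were not called changed sign when single arrays were left out. Between interneuron ages Olig2 ran from -0.14 to 0.16 and Sox10 from -0.17 to 0.094. Between pyramidal ages Pdgfra ran from -0.20 to 0.13, Olig1 from -0.074 to 0.088, Olig2 from -0.13 to 0.15, Cspg4 from -0.088 to 0.089, Gpr17 from -0.0049 to 0.26, Bcas1 from -0.063 to 0.070 and Neu4 from -0.10 to 0.037. In age by population Olig2 ran from -0.11 to 0.19 and Sox10 from -0.041 to 0.22. Lhfpl3 lost its age by population call under median centring (-0.98) and a second quantile normalization (-0.94), and Gpr17 gained one under median centring (1.03); these values lie close to the 2-fold threshold. Every gene had 1 probe set, so choosing the one with the lowest mean gave no other value. SAM was not run for age by population.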
